A study of Mus musculus with 6 samples.

Results

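The genes described here are 7 members of the Hedgehog (Hh) pathway, Ihh, Ptch1, Smo, Gli1, Gli2, Gli3 and Hhip, taken by symbol from the gene lists of all 6 libraries. They are 7 of the 30406 genes that the 6 lists share, and each was followed across every nuclear population and time point. Nuclei came from the tibial periosteum, the tissue layer on the outer surface of bone, of mice labelled C57BL6, which the study's methods give as wild-type C57BL/6ScNj animals of both sexes mixed. Uninjured periosteum was sampled in 2 libraries, day 3 after an open, non-stabilised tibial fracture in 2, and days 5 and 7 in 1 each. The fractured samples held the injured periosteum together with the hematoma or callus. Each library pooled several mice, so it carries no spread between animals, and nuclei were sorted on a DNA dye before droplet 3′ RNA-seq.

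Hedgehog ligands are secreted proteins that bind the receptor PTCH1. Without ligand, PTCH1 holds the membrane protein SMO inactive, and the transcription factors GLI2 and GLI3 are largely processed into repressors or degraded. With ligand, SMO is released and GLI activators switch on target genes, of which Gli1, Ptch1 and Hhip are the usual readouts. PTCH1 and HHIP bind ligand themselves and so act as negative feedback. In the growth plate, Indian hedgehog, the product of Ihh, is made by prehypertrophic chondrocytes, acts on neighbouring chondrocytes and on osteoblast precursors, and is tied into a loop with parathyroid hormone-related protein.

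Depth differed widely between libraries. They held 655 to 4712 barcodes and 1499281 to 29796296 unique molecular identifiers (UMIs, 1 per captured RNA molecule), and 365 to 2147 nuclei per library were kept and named, 6163 in all. These fell into 23 clusters, of which those with stromal and skeletal markers formed 7 populations named from fixed markers. They are skeletal stem/progenitor cell-like (SSPC-like), fibroblast-like, Luzp2/Cldn1 fibroblast-like, injury-induced fibrogenic cell-like (IIFC-like), tendon-like, osteoblast-like and chondrocyte-like nuclei. The marker check held for the chondrocyte-like and osteoblast-like populations. The chondrocyte-like cluster was led by Hapln1, Col2a1 and Col9a1, and the osteoblast-like cluster had Ibsp, a bone matrix gene, among its top genes. It was weaker for IIFC-like nuclei, where a cluster of 549 nuclei had none of its markers among its 10 leading genes. That name also covers 24 and 74 nuclei of the uninjured libraries, with low median depths of 691 and 887 UMIs. The fibroblast-like class joined a cluster led by Brinp1, Pdzrn4 and Igf1 and one led by Aldh1a2, Apod and Abca8a, and the first of them scored highest for IIFC markers and has its name from 1 marker, Fgf7, among its top genes. The second held 86 of the fibroblast-like nuclei of uninjured library 2 against 23 in the first, while the first held 77 against 49 in day 3 library 2, so fibroblast-like values at the different times rest on different clusters. No library shared more than 7 barcodes with another. Levels are given as CPM, a gene's UMIs scaled to 1e6 UMIs of the summed nuclei of a population in a library, with 95% exact Poisson intervals that cover counting error only. Where nothing was counted, the limit given is instead 3 counts over the summed UMIs, or over the nuclei for a share. It lies somewhat below the exact upper limit.

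The 7 genes differ in length, and reads from introns were counted. On GRCm38, Ihh lies at chr1:74945315-74951672 on the minus strand and spans 6.36 kb. Ptch1 lies at chr13:63508328-63573598, minus strand, and Smo at chr6:29735503-29761365, plus strand. Gli1 lies at chr10:127329882-127341974 and Gli2 at chr1:118834132-119053619, both minus. Gli3 lies at chr13:15463235-15730026, plus strand, and Hhip at chr8:79965851-80058006, minus strand. Exons make up 47.9% of Ihh and 41.3% of Gli1 but 3.13% of Gli2 and 3.59% of Gli3, the longest at 266.79 kb. For this reason each gene is compared only with itself across populations and times, never with another gene.

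Gli2, Hhip and Ptch1 are genes whose stromal level moved together at day 3 (values below), so the 250 bases before the RefSeq start site of each are shown, 5′ to 3′ in the direction of transcription. On GRCm38.p6 they are chr1:119053620-119053869 for Gli2, chr8:80058009-80058258 for Hhip and chr13:63565736-63565985 for Ptch1, all minus strand. The Ptch1 window precedes 1 of several start sites and lies in an intron of the longer annotated gene.
Gli2: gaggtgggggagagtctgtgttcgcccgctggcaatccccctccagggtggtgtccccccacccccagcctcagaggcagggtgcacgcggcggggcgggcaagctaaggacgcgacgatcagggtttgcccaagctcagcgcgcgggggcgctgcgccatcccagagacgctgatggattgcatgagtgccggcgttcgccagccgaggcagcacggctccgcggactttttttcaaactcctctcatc
Hhip: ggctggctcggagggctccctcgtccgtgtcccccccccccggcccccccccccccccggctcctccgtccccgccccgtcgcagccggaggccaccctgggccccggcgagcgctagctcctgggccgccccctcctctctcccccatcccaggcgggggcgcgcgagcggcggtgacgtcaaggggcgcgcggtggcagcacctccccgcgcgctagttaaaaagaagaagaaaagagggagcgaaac
Ptch1: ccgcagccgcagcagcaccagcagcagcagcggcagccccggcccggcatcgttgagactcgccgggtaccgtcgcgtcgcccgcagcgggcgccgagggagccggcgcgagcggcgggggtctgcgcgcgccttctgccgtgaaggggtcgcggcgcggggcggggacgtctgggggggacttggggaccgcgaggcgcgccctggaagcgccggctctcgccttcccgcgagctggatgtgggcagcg
The GLI consensus GACCACCCA (TGGGTGGTC on the other strand), searched from 250 bases before to 50 bases after the start site, was in 0 of the 6 members' promoters that could be searched and in 0.253% of 32851 promoters of all genes. Nothing is in capitals because there was no match, which says only that these 9 letters are not in these windows.

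Most of the pathway RNA was stromal. The 7 stromal populations held 52.3% of all UMIs of named nuclei, but 97.1% of the 69 Ihh UMIs, 85.9% of the 4141 Ptch1 UMIs and 81.7% of the 1733 Smo UMIs. They held 91.2% of the 351 Gli1 UMIs, 91.1% of the 1837 Gli2 UMIs and 88.4% of the 277 Hhip UMIs. Gli3 had 7944 UMIs in all named nuclei. The share of Ihh in chondrocyte-like nuclei was 88.4%, and 43.0% of Hhip UMIs came from fibroblast-like nuclei. The members thus shared the stromal compartment but not the population within it.

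**Figure D1:**
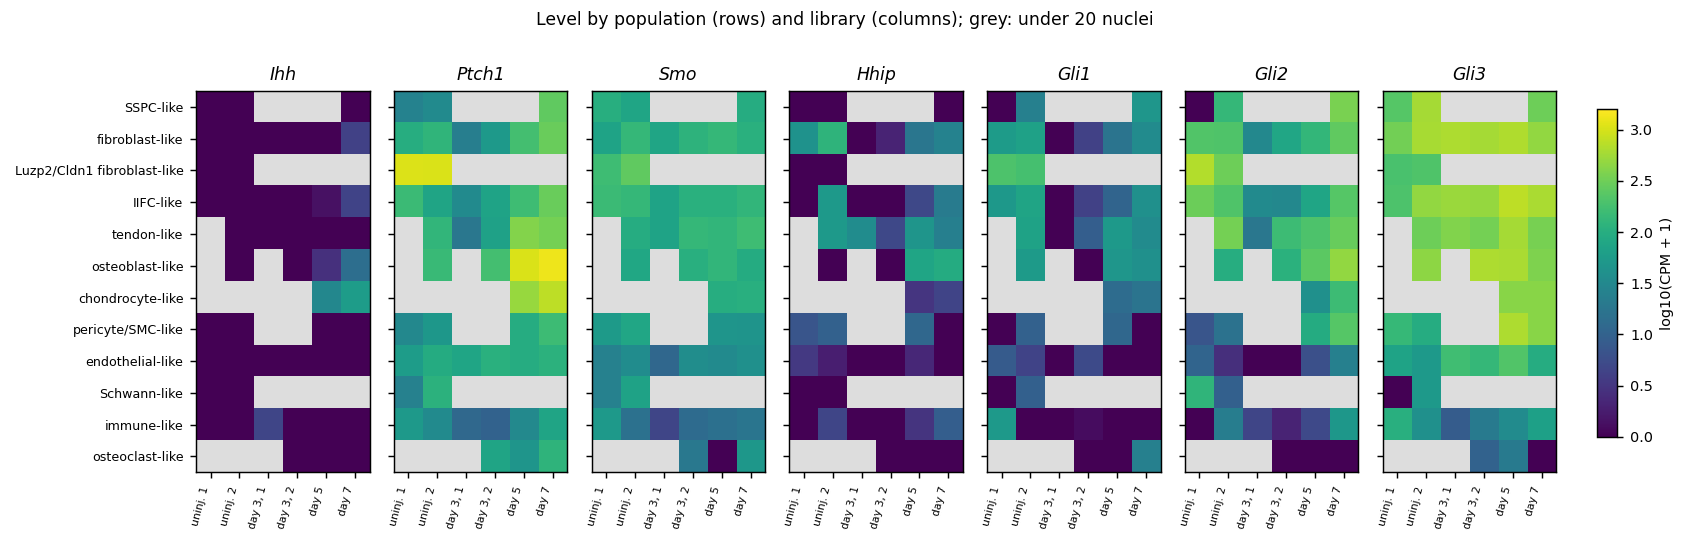
Level of each of the 7 genes (from CPM, 1 panel per gene, colour scale as printed) by nuclear population and library. Ihh appears in chondrocyte-like nuclei of days 5 and 7, Ptch1 is high in Luzp2/Cldn1 fibroblast-like nuclei at rest and in osteoblast-like and chondrocyte-like nuclei of days 5 and 7, and Gli3 is spread over the stromal populations.

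Ihh, the ligand, was read in the stromal nuclei of the later libraries only. No Ihh UMI was counted in the stromal nuclei of either uninjured library or of either day 3 library, which allows up to 1.55 CPM and 1.19 CPM over the 2 libraries of each group. On day 5 there were 30 UMIs, or 4.96 CPM (3.35 to 7.09), and on day 7 there were 37, or 21.9 CPM (15.4 to 30.1). In chondrocyte-like nuclei the level was 29.5 CPM on day 5 (19.6 to 42.7; 161 nuclei) and 58.2 CPM on day 7 (40.1 to 81.7; 242 nuclei). Chondrocyte-like nuclei numbered only 3 and 6 in the uninjured and 3 and 5 in the day 3 libraries, too few to measure Ihh in such nuclei before day 5. Days 5 and 7 have 1 library each, and no test between them was possible. After thinning each nucleus to 500 UMIs, 2.48% of chondrocyte-like nuclei on day 5 and 3.31% on day 7 had an Ihh UMI, and 10.7% on day 7 without thinning. Immune-like nuclei, which should lack the gene, had none in 482 on day 5, which allows a share of up to 0.622%, and none in 106 on day 7, which allows up to 2.83%. These limits are on nuclei with a UMI at that depth, not on nuclei that express the gene. Their median depth was 1514 and 771 UMIs, against 5086 and 1594 in chondrocyte-like nuclei. Without thinning, 1 Ihh UMI was counted in immune-like nuclei of day 3 library 1 (3.715 CPM). Another 1 was in day 7 nuclei of an unnamed cluster led by Bcl11a, Grap2 and Htr7 (17.0 CPM).

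Nuclei with an Ihh UMI were set beside the other chondrocyte-like nuclei of the same library for the genes of chondrocyte maturation. There were 16 such nuclei on day 5 and 26 on day 7, and they were deeper, with medians of 5924.5 and 1972 UMIs against 5024 and 1577. Col10a1, the collagen of hypertrophic cartilage, stood at 787 CPM in Ihh-positive against 62.1 CPM in other nuclei on day 5, and at 620 against 102 CPM on day 7. Pth1r, the receptor for parathyroid hormone-related protein, stood at 1101 against 431 CPM on day 5 and 1654 against 782 CPM on day 7. Mef2c, a regulator of hypertrophy, stood at 4790 against 1240 CPM and then 3036 against 1781 CPM. Ibsp and Runx2, genes of mineralising cells, were also higher on both days, Ibsp at 1958 against 181 and 362 against 145 CPM, and Runx2 at 4161 against 1888 and 4729 against 2700 CPM.

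Other genes of the list were mixed. Col2a1, a cartilage collagen, was also higher, at 7071 against 3244 CPM on day 5 and 5245.5 against 4226 CPM on day 7. Mmp13 was not higher, at 0 against 7.30 CPM on day 5 and 12.9 against 32.7 CPM on day 7, from few UMIs. Sox9, the early chondrocyte regulator, stood at 346 against 353 CPM on day 5 and 155 against 182 CPM on day 7. Acan, the main cartilage proteoglycan, stood at 4751 against 1949 CPM on day 5 but at 2261 against 2086 CPM on day 7, where the intervals overlapped. Pthlh, which encodes parathyroid hormone-related protein, had no UMI in any of these nuclei. Within the pathway, Ptch1 stood at 598 against 486 CPM on day 5 and 891 against 733 CPM on day 7, and Gli3 at 307 against 450 and 297 against 441 CPM. The intervals of Ptch1 and of Gli3 overlapped between these classes of nuclei on both days. These nuclei were picked by their own Ihh count in 2 libraries, so the values are a description with no test.

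**Figure D2:**
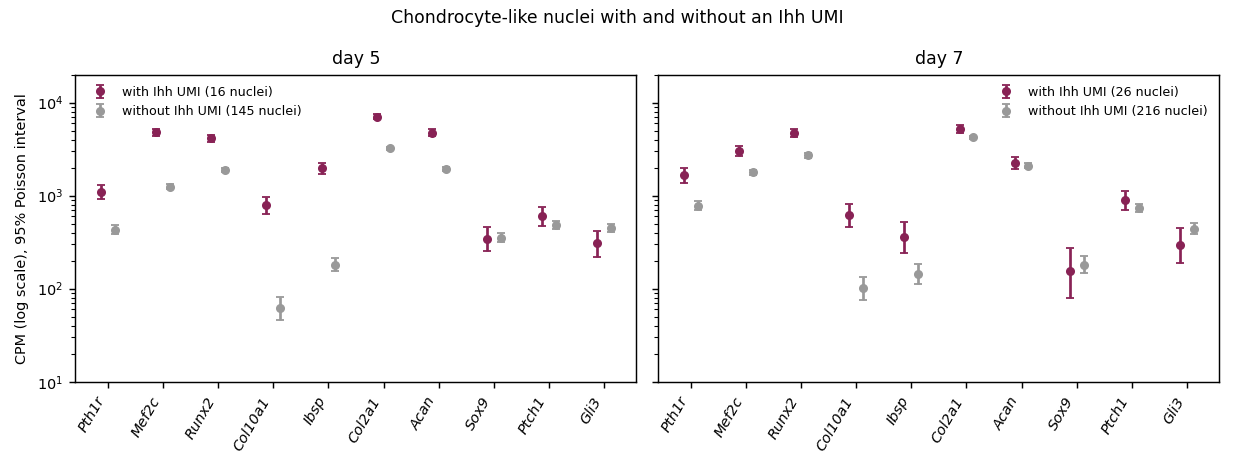
Level (CPM, log axis) of chondrocyte maturation genes in chondrocyte-like nuclei with and without an Ihh UMI, on day 5 and day 7, with 95% Poisson intervals. Col10a1 lies higher in nuclei with an Ihh UMI on both days, while Sox9 lies at similar levels.

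Ptch1, the receptor and a target gene, fell at day 3 and was high again later. In stromal nuclei it stood at 464 and 226 CPM in the uninjured libraries, 32.1 and 74.8 CPM in the day 3 libraries, 339 CPM on day 5 and 501 CPM on day 7. The uninjured and day 3 libraries did not overlap, and the day 5 and day 7 values fell inside or just above the uninjured range. Group means were 345 ± 168 CPM uninjured and 53.4 ± 30.1 CPM at day 3 (SD, n = 2 libraries). By edgeR's quasi-likelihood test, the day 3 change in Ptch1 was −2.71 ± 0.46 on the log2 scale (SE; adjusted p = 0.00952).

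This fall in Ptch1 depended on which stromal nuclei were counted. Luzp2/Cldn1 fibroblast-like nuclei had Ptch1 at 1062 and 1055 CPM in the uninjured libraries, from 31 and 41 nuclei. On day 5 the 16 nuclei of this kind had 2753 CPM (2342 to 3216). They made up 6.57% and 4.48% of uninjured nuclei but 0.548% and 0.353% of day 3 nuclei. Without them, a choice made after the data were seen, the change in stromal Ptch1 was −1.04 ± 0.45 with an adjusted p of 0.21 by edgeR, and no longer passed. Within fibroblast-like nuclei Ptch1 stood at 98.8 and 122 CPM uninjured and at 22.3 and 52.5 CPM at day 3. These libraries did not overlap, but the change of −1.43 ± 0.52 did not pass (edgeR, adjusted p = 0.162).

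Among populations with at least 20 nuclei in a library, Ptch1 was highest in Luzp2/Cldn1 fibroblast-like nuclei in the uninjured libraries and in osteoblast-like nuclei on days 5 and 7. The few Luzp2/Cldn1 nuclei of the fractured libraries, 2 and 4 at day 3, 16 on day 5 and 5 on day 7, still had 657, 746, 2753 and 1244 CPM. Uninjured SSPC-like nuclei stood at 24.97 and 32.6 CPM. On day 5 osteoblast-like nuclei had 1055 CPM (971 to 1144; 160 nuclei) and chondrocyte-like nuclei 501 CPM (457 to 548). On day 7 the 2 populations had 1311 CPM (1066 to 1596; 60 nuclei) and 755 CPM (685 to 830). Osteoblast-like nuclei of uninjured library 2 had 145 CPM, from 74 nuclei, and those of day 3 library 2 had 173 CPM from 27. IIFC-like nuclei had 159 CPM on day 5 and 297 CPM on day 7, below the other 2 skeletal populations. Thinned to 500 UMIs, 28.1% of osteoblast-like nuclei on day 5 and 28.8% on day 7 had a Ptch1 UMI, against 1.45% and 3.77% of immune-like nuclei. In the uninjured libraries 32.3% and 31.7% of Luzp2/Cldn1 fibroblast-like nuclei had one, against 3.45% and 1.98% of immune-like nuclei. Median depths were 2343 and 5326 UMIs in the Luzp2/Cldn1 nuclei and 590 and 879 UMIs in the immune-like nuclei.

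The stromal and related nuclei of the uninjured libraries were also clustered alone. Besides stromal nuclei they held a myogenic-like sub-cluster of 94 nuclei and one of 27 led by the satellite cell gene Pax7 with Hs6st3 and Chodl. Of the 8 sub-clusters, the one led by Nebl, Sfrp5 and Itgb4, with Cldn1 as a marker, held 36 nuclei and had Ptch1 at 2421 and 1872 CPM in the 2 libraries, from 89 and 221 UMIs. The one led by Luzp2, Myo5b and Il1rapl1 had 138 and 73.5 CPM. The Pi16-marked SSPC sub-cluster had 22.2 and 28.5 CPM, and the largest fibroblast sub-cluster 99.1 and 122 CPM. The Luzp2/Cldn1 value in the whole data therefore pooled nuclei with very different Ptch1 levels. The same Cldn1-marked sub-cluster had Gli2 at 1088 and 407 CPM. Pathway genes were not among the clustering features, but Ptch1 was itself among the 10 leading genes of the Cldn1-marked sub-cluster, and the values are a description with no test.

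**Figure D3:**
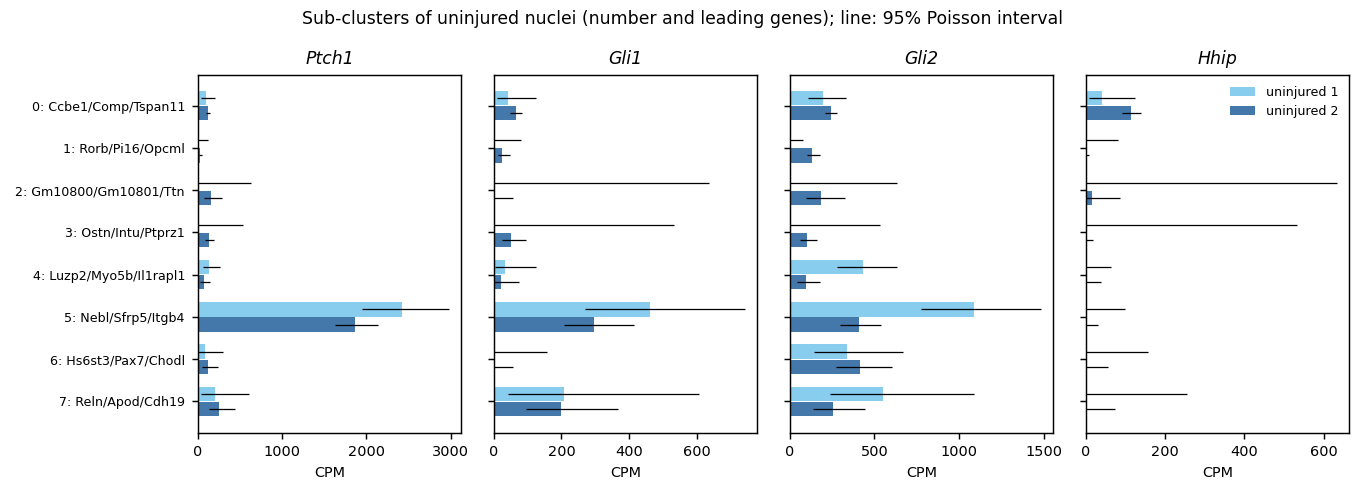
Level (CPM) of Ptch1, Gli1, Gli2 and Hhip in sub-clusters of stromal and related uninjured nuclei, 1 value per library with 95% Poisson intervals. Ptch1 reaches 2421 and 1872 CPM in the Cldn1-marked sub-cluster, and Hhip lies in the fibroblast sub-cluster led by Ccbe1, Comp and Tspan11.

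Smo, the signal-transducing membrane protein, did not pass the test. It stood at 116 and 129 CPM in uninjured stromal nuclei, 72.8 and 116 CPM at day 3, 116 CPM on day 5 and 115 CPM on day 7. Day 3 library 1 was the lowest, and the other 5 libraries lay between 115 and 129 CPM. The uninjured and day 3 libraries did not overlap, but the margin was narrow, at 116.05 CPM in uninjured library 1 against 115.53 CPM in day 3 library 2. The day 3 change was −0.45 ± 0.34 (edgeR, adjusted p = 0.523).

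Hhip, the ligand-binding inhibitor, was read mainly in fibroblast-like nuclei at rest. In stromal nuclei it stood at 12.9 and 56.9 CPM uninjured, 6.42 and 1.46 CPM at day 3, 17.7 CPM on day 5 and 18.9 CPM on day 7. Only 3 UMIs were counted in uninjured library 1 and in each day 3 library, against 97 in uninjured library 2. The fall at day 3 was −3.92 ± 0.96 (edgeR, adjusted p = 0.0351). It was lost without day 3 library 2 (adjusted p = 0.13), and without uninjured library 2 the gene did not pass the filter on low counts.

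In fibroblast-like nuclei, Hhip stood at 42.3 and 121 CPM uninjured, from 3 and 82 UMIs, against 0 and 1 UMI in the day 3 libraries. Both uninjured libraries were above both day 3 libraries. The 0 of day 3 library 1 allows up to 22.3 CPM, which lies inside the interval of uninjured library 1 (8.73 to 124 CPM). Over both libraries of each group the ratio was 121, with an exact counting interval from 21.2 to 4839. The uninjured UMIs came from 1 of 41 nuclei in library 1 and 8 of 109 in library 2. The interval takes each UMI as independent, so it is too narrow for UMIs from so few nuclei. The fitted change passed at an adjusted p of 0.0041 (edgeR). The value was 17.3 CPM on day 5 and 24.9 CPM on day 7. All but 1 of the Hhip UMIs in the sub-clusters of uninjured nuclei were in the fibroblast sub-cluster led by Ccbe1, Comp and Tspan11, at 42.5 and 114 CPM. They came from 18 of its 240 nuclei. Later, Hhip was also read in osteoblast-like nuclei, at 74.2 CPM on day 5 (53.2 to 100.6) and 92.7 CPM on day 7 (37.3 to 191), against 0 UMIs in the 74 such nuclei of uninjured library 2, which allows up to 18.1 CPM.

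Gli1, a transcription factor and target gene, fell at day 3. Uninjured stromal nuclei had 103 and 72.1 CPM, day 3 nuclei 2.14 and 3.40 CPM, day 5 nuclei 18.5 CPM and day 7 nuclei 31.3 CPM. The day 3 values rest on 1 and 7 UMIs, against 24 and 123 in the uninjured libraries. The groups did not overlap, and the day 7 interval of 23.5 to 41 CPM stayed below both uninjured values. The change at day 3 was −4.89 ± 0.60 (edgeR, adjusted p = 0.00274), and over both libraries of each group the ratio was 24.0 (exact counting interval 11.8 to 56.5). It passed in every alternative run. In fibroblast-like nuclei Gli1 stood at 56.4 and 67.8 CPM uninjured and 0 and 3.21 CPM at day 3, from 3 UMIs in all, where the 0 allows up to 22.3 CPM. The ratio was 23.7 (7.67 to 119). That change also passed, with an adjusted p of 0.0146 (edgeR). It did not pass in the Aldh1a2-led cluster alone (adjusted p = 0.138), a choice made after the data were seen.

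Gli2, the main activator, fell too. It stood at 374 and 210 CPM in uninjured stromal nuclei, 29.98 and 73.8 CPM at day 3, 112 CPM on day 5 and 227 CPM on day 7. The uninjured and day 3 libraries did not overlap, day 5 lay between them, and day 7 lay at the lower end of the uninjured values. The change was −2.51 ± 0.44 (edgeR, adjusted p = 0.0109) and passed in every alternative run. In fibroblast-like nuclei it stood at 212 and 209 CPM uninjured and 29.8 and 77.1 CPM at day 3, a change of −1.80 ± 0.46 (edgeR, adjusted p = 0.0415). That smaller fibroblast-like call was lost under DESeq2 (adjusted p = 0.147) and in 4 other settings. On day 7 Gli2 was also higher outside the stroma than on day 5, from few UMIs. It stood at 49.0 against 4.11 CPM in immune-like and 23.9 against 5.09 CPM in endothelial-like nuclei. In an unnamed cluster led by Bcl11a, Grap2 and Htr7 it stood at 136 against 8.86 CPM. Whether a background of the whole day 7 library has a part in its stromal values was not tested.

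Gli3, largely the repressor of the family, did not pass the test at day 3. It stood at 241 and 489 CPM in uninjured stromal nuclei, 533 and 523 CPM at day 3, 651 CPM on day 5 and 494 CPM on day 7. Both day 3 libraries were above both uninjured ones, but uninjured library 1 was much lower than uninjured library 2. The change of 0.48 ± 0.40 did not pass (edgeR, adjusted p = 0.568). IIFC-like nuclei of day 5 had 753 CPM (720 to 788), the highest of any named population with at least 20 nuclei. Gli3 was also read outside the stroma, at 215 CPM in endothelial-like nuclei on day 5 and at 631 CPM in pericyte/smooth muscle-like nuclei on that day.

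**Figure D4:**
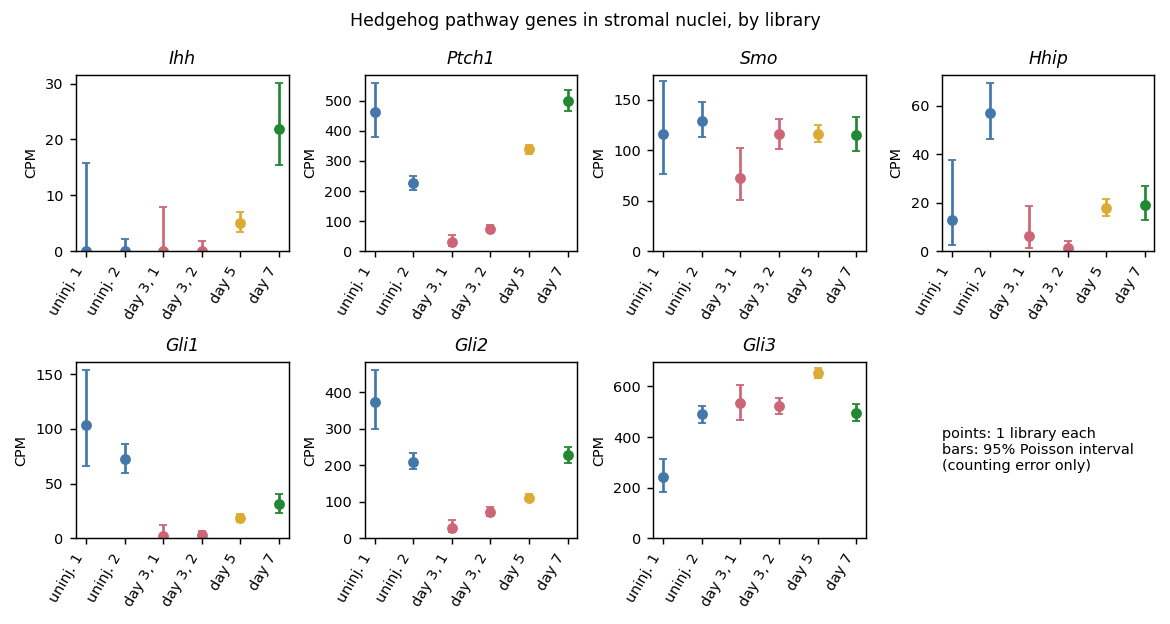
Level (CPM) of each of the 7 genes in stromal nuclei by time point, 1 point per library with 95% Poisson intervals. Ptch1, Gli1, Gli2 and Hhip are lower in both day 3 libraries than in both uninjured ones, and so, by a narrow margin, is Smo. Gli3 is not, and Ihh appears on days 5 and 7.

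Set side by side, 4 of the 6 members that could be tested in stromal nuclei, Gli1, Ptch1, Gli2 and Hhip, were lower at day 3 and none was higher. Ihh was filtered out for low counts, so 6 of 7 were tested. Over all 10068 genes tested, 8.6% were called in either direction, 5.03% lower and 3.58% higher. The median change was −2.61 on the log2 scale over the 6 members and 0.01 over all genes tested. In fibroblast-like nuclei, 3 of 6 passed, Hhip, Gli1 and Gli2, all lower, against 5.5% of 6650 genes called in either direction, 3.11% lower and 2.39% higher. Smo (−0.19 ± 0.47) and Gli3 (0.38 ± 0.43) did not pass there. In endothelial-like nuclei, where 3.02% of 6745 genes were called, 1.56% lower and 1.47% higher, none of the 3 members tested passed. Ptch1 stood at 58.0, 91.1, 75.7 and 106 CPM in the uninjured and day 3 libraries and Gli3 at 70.1, 53.5, 162 and 133 CPM. At an unadjusted p under 0.05, edgeR counted 1 of the 3, Gli3, with a change of 1.14 ± 0.39, and DESeq2 counted 0. The difference in the change of Ptch1 between stromal and endothelial-like nuclei was itself −2.66 ± 0.51 (edgeR interaction, adjusted p = 0.00163), where 4.14% of 8848 genes were called, 2.38% with a negative difference. This interaction test was not run without the Luzp2/Cldn1 fibroblast-like nuclei, so their part in the Ptch1 difference was not tested. The same test did not pass for Gli1 (−4.26 ± 1.75, adjusted p = 0.255), whose level in endothelial-like nuclei was at most 7.25 CPM.

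**Figure D5:**
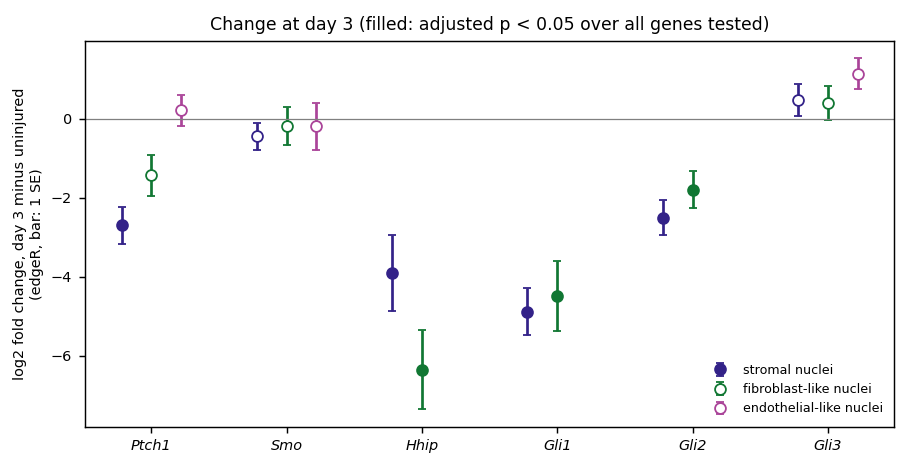
Change at day 3 against uninjured (log2, edgeR, with SE) of the members tested in stromal, fibroblast-like and endothelial-like nuclei. Gli1, Ptch1, Gli2 and Hhip lie below 0 in stromal nuclei, and Ptch1 lies near 0 in endothelial-like nuclei.

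Markers of other cell types also moved with the time point inside the stromal nuclei, and their part in these changes was not tested. The summed level of 6 immune markers was 8.60 and 12.9 CPM in the uninjured and 118 and 468 CPM in the day 3 libraries. Endothelial markers stood at 318 and 182 CPM uninjured against 23.6 and 49.5 CPM at day 3. Schwann cell markers stood at 138 and 82.1 CPM against 21.4 and 35.0 CPM. Myogenic markers stood at 516 and 733 CPM against 482 and 340 CPM, and osteoclast markers at 34.4 and 53.9 CPM against 17.1 and 103 CPM. A lower level in the summed nuclei and a smaller share of nuclei that hold the gene cannot be told apart, neither for the stromal total nor for the fibroblast-like class, which joins 2 clusters.

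Other genes of the pathway were counted by a fixed list. Of its 26 genes, 18 could be tested in stromal nuclei, 2 were lower at day 3 and none was higher, beside 5.03% of all genes tested called lower, with a median change of −0.21 on the log2 scale against 0.01 for all genes tested. The 2 were Cdon (−1.54 ± 0.40, adjusted p = 0.0418) and Boc (−1.28 ± 0.33, adjusted p = 0.0440), both co-receptors that help ligand bind PTCH1 (edgeR). Cdon stood at 258 and 415 CPM uninjured, 74.9 and 170 CPM at day 3, 174 CPM on day 5 and 205 CPM on day 7. Boc stood at 284 and 380 CPM, then 113 and 174 CPM, then 176 and 152 CPM. In both, the uninjured libraries lay above all 4 fractured libraries, without the later rise of the stromal Ptch1 total. The nuclei behind that Ptch1 total changed. Luzp2/Cldn1 fibroblast-like nuclei held 330 of its 494 uninjured UMIs, and chondrocyte-like nuclei held 428 UMIs on day 7. Fibroblast-like nuclei alone had Ptch1 at 172 CPM on day 5 and 292 CPM on day 7. The Boc call was lost in 9 alternatives and the Cdon call in 4. Of 11 transduction genes tested, such as Sufu, Kif7 and Gsk3b, none passed in stromal nuclei by edgeR or DESeq2, with 1 and 0 at an unadjusted p under 0.05. In fibroblast-like nuclei none of the 15 wider genes tested passed by edgeR or by DESeq2, with 4 and 2 of them at an unadjusted p under 0.05.

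Ligand handling was split between populations. Dhh, another Hedgehog ligand, was read in Schwann-like nuclei at 58.4 CPM over all libraries, with 24.4 and 86.0 CPM in the uninjured ones, and no Shh UMI was counted in any named nucleus. Disp1, which releases ligand from the cell, stood at 599 CPM in Schwann-like nuclei. Scube1, a secreted protein that helps carry ligand, was at 0 and 2.93 CPM in uninjured stromal nuclei, 0 and 6.31 CPM at day 3, 37.7 CPM on day 5 and 127 CPM on day 7. In chondrocyte-like nuclei, the main source of Ihh, it reached 199 CPM on day 5 and 353 CPM on day 7. Schwann-like nuclei numbered 62 in all, so those values rest on few nuclei.

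Known GLI targets were also listed. Of 12, 6 could be tested in stromal nuclei, 3 of them the members Gli1, Ptch1 and Hhip counted above. Of the other 3, Bcl2 was lower at day 3, beside 5.03% of all genes tested. Bcl2, which restrains cell death, stood at 262 and 223 CPM uninjured, 40.7 and 86.4 CPM at day 3, 74.5 CPM on day 5 and 68.5 CPM on day 7. Its change was −1.97 ± 0.37 (edgeR, adjusted p = 0.0139), and unlike the stromal Ptch1 total it was still low on days 5 and 7. In the chondrocyte maturation list, 1 of 12 tested genes, Ibsp, was higher at day 3 in stromal nuclei, beside 3.58% of all genes tested (2.21 ± 0.47, adjusted p = 0.0203, edgeR). In fibroblast-like nuclei, Runx2 (2.50 ± 0.48, adjusted p = 0.0126) and Spp1 (adjusted p = 0.0411) were higher (edgeR), beside 2.39% of all genes tested there. The stromal Ibsp call was lost in 2 alternatives, the fibroblast-like Runx2 call in 1 and the Spp1 call in 3.

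Across populations, ranges overlapped for most neighbours in the order of levels. Over libraries with at least 20 nuclei, Ptch1 ran from 1055 to 1062 CPM in Luzp2/Cldn1 fibroblast-like, 145 to 1311 CPM in osteoblast-like and 501 to 755 CPM in chondrocyte-like nuclei, and neighbouring ranges overlapped. Gli1 ran from 179 to 203 CPM in Luzp2/Cldn1 fibroblast-like nuclei and reached at most 68.3 CPM in tendon-like nuclei and 72.7 CPM in IIFC-like nuclei, so the first range was apart from the rest. The Luzp2/Cldn1 ranges come from the 2 uninjured libraries only. In its few later nuclei Gli1 stood at 51.9 CPM on day 5 (3 UMIs, 16 nuclei) and 226 CPM on day 7 (2 UMIs, 5 nuclei). Tendon-like nuclei had 52.2 CPM on day 5, so the separation holds for uninjured tissue only, and there only between these pooled classes. In the uninjured sub-clusters Gli1 stood at 462 and 297 CPM in the Cldn1-marked one but 34.5 and 21.0 CPM in the Luzp2-led one. A fibroblast sub-cluster of 18 nuclei, led by Reln, Apod and Cdh19, had 207 and 199 CPM. Gli2 ran from 308 to 678 CPM in Luzp2/Cldn1 fibroblast-like and 96.6 to 477 CPM in osteoblast-like nuclei, which overlapped. In Gli3, fibroblast-like (325 to 653 CPM) and osteoblast-like (384 to 636 CPM) nuclei could not be separated. In each stromal population with such libraries at both times, Gli1 was at 0 to 7.97 CPM at day 3. The 0 in tendon-like nuclei of day 3 library 1 allows up to 53.1 CPM, inside the interval of uninjured library 2 (36.4 to 117 CPM). The 0 in fibroblast-like nuclei of day 3 library 1 allows up to 22.3 CPM, and that in osteoblast-like nuclei of day 3 library 2 up to 19.3 CPM.

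Over 54 population and library sums, each with its own depth, the genes most like each member by Pearson's r of log2(CPM + 10) were Lrp4 for Ptch1 (0.728), Pard3 for Smo (0.860), Dzip1 for Gli1 (0.705), Sdc2 for Gli2 (0.80), Bmp1 for Gli3 (0.901) and Frmpd4 for Hhip (0.597). Gli2 was the second gene most like Gli1 (0.701) among 7452 compared. Ihh, with 69 UMIs, was under the minimum. Within the 28 sums of stromal populations, r was 0.82 between Gli1 and Gli2, 0.68 between Ptch1 and Gli2, 0.63 between Ptch1 and Gli1 and −0.41 between Gli1 and Gli3. Sums of one library share its depth and preparation, and these values are a description.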

How the data were processed

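Single-nucleus 3′ RNA-seq was made from 6 libraries, and the deposited matrices hold UMI counts per gene and nucleus. The authors made these counts with Cell Ranger, counting intronic and exonic reads on mm10. The file headers name version 6.0.0 for uninjured library 1, day 5 and day 7 and 7.1.0 for the other 3, so version and time point are partly tied. No replicate numbers are in the labels, and libraries were numbered in accession order. Libraries of a group are pools, so p-values measure only the spread between these libraries.

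From the counts, nuclei were kept if they had 200 to 5000 detected genes, less than 2% of UMIs from mitochondrial and less than 1.5% from ribosomal protein genes, myogenic clusters were removed, and libraries were integrated and clustered with Seurat 5.3.0 (20 components, resolution 1.3) without the pathway genes or markers as features. Stromal and related uninjured nuclei were clustered alone (10 components, resolution 0.2). Clusters were named by their mean score for fixed markers, with at least 3 detected, and those led by another class's markers were renamed or left unnamed. A cluster of IIFC-like, an immune-like and 2 endothelial-like clusters had no marker among their 10 leading genes. Details of naming were settled after the clusters were seen. The members and lists were chosen with earlier results of these data known. Scrublet in scanpy 1.11.5 marked 0 to 103 nuclei per library, which were kept and removed in an alternative. It marked 4 of 1723 nuclei in day 3 library 2. The filter kept 1351 of 3448 day 7 barcodes. Under a wider filter, unnamed clusters held 875, 767 and 447 day 7 barcodes. They were led by Gapdh, Rps2 and Rpl29, by Cadps, Dcc and Dab1, and by Ttr, Htr2c and Trpm3.

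UMIs were summed per library and tested with edgeR 4.0.16 (glmQLFit and glmQLFTest, filterByExpr, TMM, Benjamini-Hochberg, adjusted p threshold 0.05), 2 uninjured against 2 day 3 libraries. A population was tested only with at least 20 nuclei in each of the 4. The interaction test kept the library as a block. An exact permutation test of 2 against 2 cannot go below 0.333 two-sided. Simulated stromal counts with 200 of 10133 genes changed by 3 on the log2 scale gave 198 recovered and 7 unchanged genes called. Named genes were the 7 members throughout, other listed genes that passed or led a population described, and the 5 genes most like each member, of which the first is named. Alternatives were DESeq2 1.42.0, no filter on low counts, each library left out, Scrublet calls removed, a wider filter (5% mitochondrial), resolution 0.8, no integration, pathway genes kept as features, all nuclei, and 2 chosen after the data were seen. Shares of nuclei used 500 UMIs per nucleus and exact binomial intervals. Sequences and start sites came from RefSeq tables (6 of 7 members matched) and gene spans from GENCODE.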

Additional observations from a re-analysis of the deposited data

Results flagged for a closer look

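The change at day 3 differed between stromal and endothelial-like nuclei for 3 of the 36 listed genes that could be tested, by the interaction test of edgeR, beside 4.14% of all genes tested. For Ptch1 the difference was −2.66 on the log2 scale (edgeR interaction, adjusted p = 0.00163), and it was not tested without Luzp2/Cldn1 fibroblast-like nuclei. Ptch1 stood at 464 and 226 CPM uninjured against 32.1 and 74.8 CPM at day 3 in stromal nuclei, while endothelial-like nuclei went from 58.0 and 91.1 CPM to 75.7 and 106 CPM. For Bcl2 it was −2.91 (adjusted p = 0.0011), with 31.4 and 79.4 CPM uninjured against 195 and 99.2 CPM at day 3 in endothelial-like nuclei. For Runx2 it was −2.06 (adjusted p = 0.0334). Runx2 stood at 2.42 and 17.6 CPM uninjured against 238 and 63.3 CPM at day 3 in endothelial-like nuclei, and at 159 and 900 CPM against 1493 and 1366 CPM in stromal nuclei. No group has 4 libraries, so single libraries that stand apart were not tested for.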

How the results depend on the processing

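Over the alternatives run, Gli1 and Gli2 in stromal nuclei kept their call, at −4.41 to −5.45 and −1.96 to −3.09 on the log2 scale, and so did the Ptch1 interaction. The interaction was not run without Luzp2/Cldn1 fibroblast-like nuclei, a choice under which the stromal Ptch1 change no longer passed. The count of stromal genes called, 866, became 1408 with no filter on low counts and ran from 501 (without uninjured library 2) to 1101 with a library left out. The fibroblast-like count, 366, became 231 under DESeq2 and 167 in the Aldh1a2-led cluster alone, and ran from 100 (without uninjured library 2) to 489 with a library left out. The endothelial-like count, 204, became 720 with no filter, with the median of all genes at −0.30, and ran from 0 to 343 with a library left out. The 0 was without uninjured library 2, where edgeR had 890 genes at an unadjusted p under 0.05, and the count was 113 without day 3 library 1 and 15 without day 3 library 2. DESeq2 on all 4 libraries called 228. The interaction count, 366, became 116 under DESeq2 and 489 with the wider filter, and ran from 195 (without day 3 library 2) to 371 with a library left out. The Runx2 interaction was lost under DESeq2, without doublets, and without day 3 library 1 or uninjured library 2.

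Directions turned for changes that had not passed. With a library left out, Smo in fibroblast-like nuclei ran from −0.561 to 0.462 (without uninjured library 2), and Gli3 there from −0.082 (without uninjured library 1) to 0.904. In endothelial-like nuclei Ptch1 turned to −0.015 with the wider filter and ran from −0.067 (without uninjured library 1) to 0.515, and Smo ran from −1.461 to 0.025 (without day 3 library 1, and without uninjured library 2). Without integration Gli3 in IIFC-like nuclei of day 5 stood at 713.8 CPM and Hhip in uninjured fibroblast-like nuclei at 0, since only 0 and 3 such nuclei were then found. The fibroblast-like test was therefore not run without integration. Pericyte/smooth muscle-like nuclei were too few at day 3 (4 and 9) for the planned test. The Hhip fall in stromal nuclei was also lost over all nuclei (adjusted p = 0.106). Where a cause is not named it was not tested.

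No paired analysis was possible because the labels give the libraries no replicate numbers. The number of chondrocyte-like nuclei limits what can be said of Ihh before day 5.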
